A study of Mus musculus with 2 samples.

Results

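Microglia and macrophages of the mouse hippocampus were examined in single-nucleus RNA sequencing of 2 libraries, 1 of male and 1 of female 3-month-old mice, both with the genotype Stra8L/-; Nestin-Cre (Stra8-cKO). A nucleus was taken as a member from its own counts, by a rule on 7 genes of myeloid cells: Inpp5d, Ikzf1, Dock8, Runx1, Csf1r, Cx3cr1 and P2ry12. Its barcode had to hold at least 500 genes, at most 5% mitochondrial UMIs and at most 5000 UMIs, at least 4 UMIs of these genes with at least 3 of the genes detected, and at most 1 UMI of the oligodendrocyte genes Mog, Mag and Aspa. A UMI is a molecular tag that lets copies of 1 RNA molecule be counted once. The rule found 1338 nuclei, 710 male and 628 female, among the 35285 barcodes that passed the gene and mitochondrial limits and 36324 barcodes in all. Both groups carry the deletion, and a library of another genotype was not analysed here. The labels do not say how many animals went into a library.

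Microglia are the resident macrophages of the brain parenchyma. They arise from yolk sac progenitors, depend on the CSF1 receptor and on TGF-beta, survey the tissue through purine and chemokine receptors, and clear debris and synapses with complement and phagocytic receptors. A smaller population, the border-associated macrophages, lies along vessels, meninges and choroid plexus and is known for the scavenger receptor gene Mrc1 and the coagulation factor gene F13a1. The Nestin promoter places Cre in progenitors of the neural lineage, from which microglia do not descend, and whether the Stra8 allele was recombined in these nuclei was not tested. Stra8 itself, a gene known for the entry of germ cells into meiosis, had 3 UMIs in the 16174 male barcodes and 6 UMIs in the 20150 female barcodes. No member held a Stra8 UMI, which allows a share of up to 0.423% of male and 0.478% of female members with one.

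The members were shallow relative to the rest of their libraries. The rule held members to at most 5000 UMIs and set no such limit on the rest, so part of this gap was set by the choice of nuclei. The median was 1667 UMIs and 1229 genes in a male member and 1783 UMIs and 1248.5 genes in a female member, against 5112 and 3083 UMIs in the other passing male and female nuclei. Members summed to 1312167 male and 1224370 female UMIs, of library totals of 103262825 and 108286856. Mitochondrial UMIs had a median of 1.44% in male and 1.92% in female members. With 1 library per group there is no test and no p-value: differences of sex cannot be told apart from those of animal, dissection or library, and every interval below is an exact 95% interval of counting error only. The libraries shared 101 barcode sequences, and 7 members had a barcode found in both libraries, but no barcode was a member in both. Xist, the X-inactivation RNA of females, had 0 UMIs in male and 3465 UMIs in female members, and the Y-linked gene Uty had 178 CPM in male members and 2.45 CPM in female ones, where CPM is a gene's summed UMI count scaled to a total of 1e+06 UMIs over the nuclei in question.

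The markers behind the rule were far above the rest of the nuclei, which is how the nuclei were chosen and so no finding. Inpp5d, which encodes the phosphatase SHIP1, had 1353 CPM in male members and 1539 CPM in female ones, against 9.39 and 12.9 CPM in all other nuclei. The transcription factor genes Ikzf1 and Runx1 had 729 and 510 CPM in male and 921 and 665 CPM in female members, and the guanine exchange factor gene Dock8 had 668 CPM in both. The CSF1 receptor gene Csf1r had 480 male and 447 female CPM. The fractalkine receptor gene Cx3cr1 had 670 male and 513 female CPM, and the purine receptor gene P2ry12 had 495 male and 567 female CPM. P2ry12 stood apart among the 7 by its smaller distance to the rest, since all other nuclei held 67.1 male and 65.5 female CPM of it, which made the members 6.94-fold and 8.11-fold higher. Median marker UMIs per member were 8 in male and 9 in female nuclei, and all 7 genes were detected in 53 male and 51 female members.

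The threshold cut through a continuous range. The 114 members with exactly 4 marker UMIs (61 male and 53 female) held 5506 male and 4398 female CPM of 16 homeostatic microglia genes outside the rule. The 90 nuclei just outside, with 3 UMIs of 3 marker genes (42 male and 48 female), held 4771 male and 2753 female CPM of them. All members held 6341 and 6062 CPM, and all other passing nuclei 797 and 960 CPM. The UMI limit left out 359 nuclei that met the marker thresholds with over 5000 UMIs. These had a median of 10406 UMIs and 1065 male and 952 female CPM of the homeostatic genes, close to the rest. The oligodendrocyte limit left out 73 nuclei, 27 male and 46 female.

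Genes that the rule did not name were compared too. The same nuclei were chosen by their counts, so the comparison is a description and no check of the label. Fold is the ratio of member CPM plus 5 to CPM plus 5 in all other passing nuclei, so that folds of low genes are understated. Of 14139 genes tested, 558 (3.95%) were at least 4-fold higher in members in both libraries and 1739 (12.3%) at least 2-fold, while the median gene stood at 1.09-fold in the library with the smaller fold. The 20 genes with the largest folds in the library where each was smaller reached 31.3-fold to 52-fold. The TGF-beta receptor gene Tgfbr1 had 1549 CPM in male members and 1892 CPM in female ones (46.1-fold and 50.7-fold). The adaptor gene Fyb was 53.3-fold and 46.5-fold higher, and Dock2, which drives Rac activation in leukocytes, 54.3-fold and 40.1-fold. Siglech, a sialic acid-binding receptor gene used as a microglia marker, had 495 male and 537 female CPM (44.7-fold and 43.3-fold).

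The other leading genes encode surface proteins (Slco2b1, an organic anion transporter, Selplg, the P-selectin ligand, Lair1, Ptprc or CD45, Ly86, Cdh23, Itgb5 and the lipid transporter Abca9), actin and signalling proteins (Adap2, Nckap1l, Apbb1ip, Pik3ap1) and the ETS factor Fli1. The genes Gm10790, Gm2629 and 8030442B05Rik also belong to the 20. Gm2629 and 8030442B05Rik are annotated as long intergenic non-coding RNAs and Gm10790 as a processed transcript, on chromosome 13 at 41865915 to 41913092 of mm10. Gm10790 had 449 CPM in male members and 541 CPM in female ones (52-fold and 52.5-fold). Siglech UMIs were found in 55.2% of male and 57.8% of female members, against 1.54% of male and 1.86% of female oligodendrocytes, a class of like depth with a median of 1765 and 1869.5 UMIs.

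**Figure D1:**
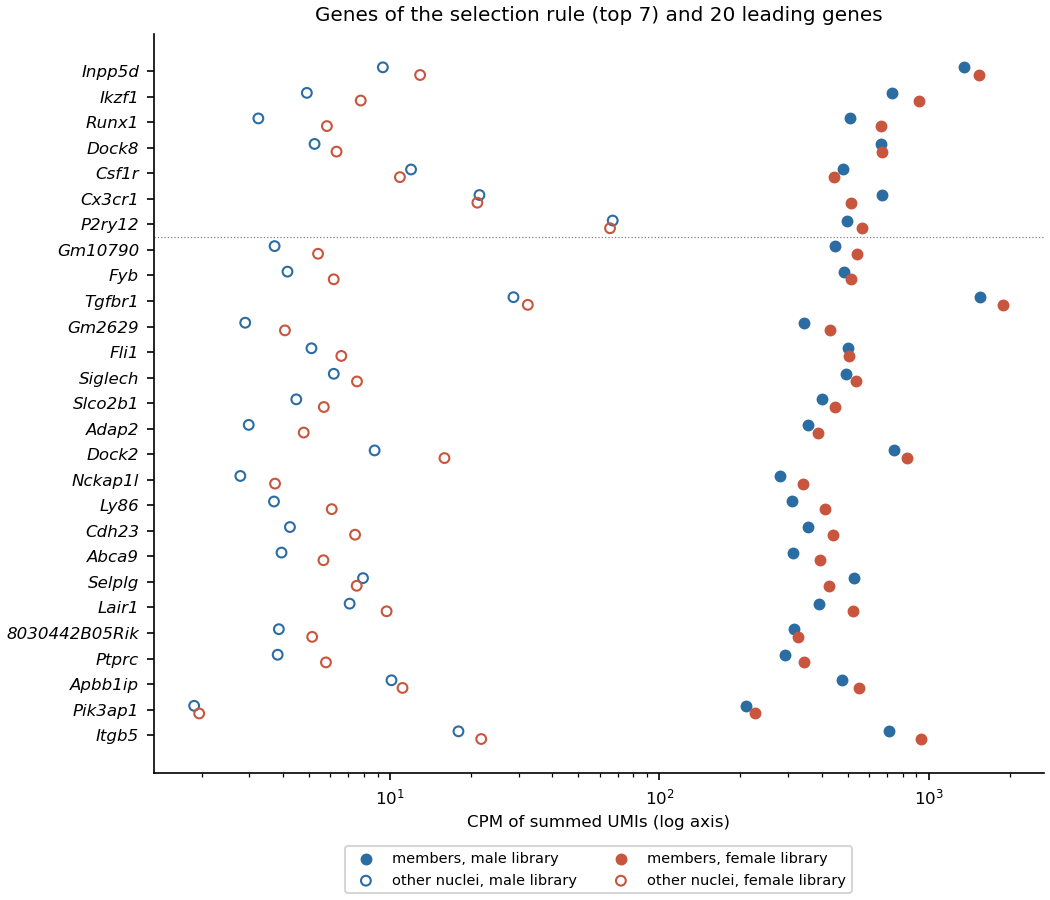
Level of the 7 genes of the rule (above the dotted line) and the 20 leading genes, as CPM of summed UMIs on a log axis, in members (filled) and all other passing nuclei (open) of the male (blue) and female (red) library. Male and female points lie close together for each gene, and P2ry12 has the highest level in other nuclei, at 67.1 and 65.5 CPM.

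Promoter sequences were available from RefSeq (build GRCm38.p6) for 16 of the 20 leading genes and 6 of the 7 genes of the rule. The windows ran from 250 bases before to 50 bases after each annotated start and were searched on both strands for GAGGAAGT, a core of the sites bound by the myeloid ETS factor PU.1 (gene Spi1). It was found in 53 of the 552 windows (9.60%) of the genes at 4-fold or more in members and in 1052 of all 32851 windows (3.20%). Among the 20 leading genes and the 7 genes of the rule it lay in windows of Inpp5d, Slco2b1 and Apbb1ip. Windows of the other genes named in this text were not looked at singly. The 3 windows are printed here up to 30 bases after the start and 5′ to 3′ on the strand of the gene. The motif or its reverse complement ACTTCCTC is in capitals. In the Inpp5d window (chr1:87620062-87620341, plus strand) it began 20 bases before the start. In the Slco2b1 window (chr7:99711311-99711590, minus strand) it began 6 bases after the start, and in the Apbb1ip window (chr2:22774077-22774356, plus strand) the reverse complement began 5 bases after it. A match describes these letters and is no binding site.
Inpp5d: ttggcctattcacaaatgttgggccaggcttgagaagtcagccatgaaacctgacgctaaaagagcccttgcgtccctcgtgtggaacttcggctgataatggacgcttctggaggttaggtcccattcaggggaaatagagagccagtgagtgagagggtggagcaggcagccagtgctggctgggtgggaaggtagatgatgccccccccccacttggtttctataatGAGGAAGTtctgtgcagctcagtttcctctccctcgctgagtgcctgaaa
Slco2b1: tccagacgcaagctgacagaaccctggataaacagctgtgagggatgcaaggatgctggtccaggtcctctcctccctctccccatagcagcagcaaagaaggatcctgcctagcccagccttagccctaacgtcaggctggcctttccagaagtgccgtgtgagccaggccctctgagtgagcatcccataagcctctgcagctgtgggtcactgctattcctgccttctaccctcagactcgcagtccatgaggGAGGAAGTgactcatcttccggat
Apbb1ip: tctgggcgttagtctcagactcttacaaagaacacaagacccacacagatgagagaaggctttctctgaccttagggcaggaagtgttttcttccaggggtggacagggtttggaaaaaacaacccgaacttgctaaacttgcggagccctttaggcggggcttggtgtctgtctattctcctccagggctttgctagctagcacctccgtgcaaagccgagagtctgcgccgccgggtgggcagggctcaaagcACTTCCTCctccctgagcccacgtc

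Clustering of the members alone, without the sex-linked check genes, mitochondrial genes or integration of the libraries, gave 6 clusters. Clusters 0 and 2 held most members and were called microglia-like. The name rests on genes of the rule, which chose the nuclei, and is no independent support. Inpp5d and Tgfbr1 led clusters 1, 4 and 5 against all other nuclei too, at 10.7-fold to 29.3-fold, against 34-fold to 56.8-fold in clusters 0 and 2. The male and female members fell largely into different ones: cluster 0 held 621 male nuclei (87.5% of the male members) and 119 female nuclei (18.9%), and cluster 2 held 26 male (3.66%) and 431 female nuclei (68.6%). With 1 library per group, a cluster made mostly of 1 library may be that library and not a type. Over the other members, cluster 0 was led by Ttr, C1ql2, Upk1b, C1qtnf4 and Spink8, with folds from 2.17 to 5.23, and Ttr is also on the choroid plexus list. Cluster 2 was led by Cables1, St8sia6, Mrc2, Ston1 and Fbxl7, with folds from 2.78 to 3.06. These genes made the clusters and are no separate result, and most of them return below among the largest male and female ratios.

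Cluster 3 had the genes of border-associated macrophages and was called border macrophage-like. It held 13 nuclei (0.972% of members), 6 male and 7 female, and all 12 genes of the border macrophage list were detected in it. All 12 were at 2-fold or more over all other nuclei, but in 13 nuclei a few UMIs suffice for that. The 1 gene detected of the pericyte and smooth muscle list, at 37.1 CPM, and all 5 fibroblast genes detected were at 2-fold too. So were the 1 endothelial and 1 monocyte and neutrophil gene detected and both ependymal and choroid plexus genes detected. Of the neuron genes detected, 1 of 7 excitatory and 1 of 2 inhibitory ones were at 2-fold. None of the 5 oligodendrocyte and 6 astrocyte genes detected were. Cluster 3 was led over the other members by F13a1 (79.8-fold), Mrc1 (54.4-fold), the endocytic adaptor gene Dab2 (41.2-fold), the adhesion gene Vcam1 (22.8-fold) and the scavenger collectin gene Colec12 (18-fold). The border macrophage list summed to 8245 CPM there, against 34.7 CPM in cluster 0 and 116 CPM in cluster 2. Clusters 1, 4 and 5 had 53.5, 376 and 318 CPM of it. Microglia genes outside the rule differed in these 13 nuclei: Tgfbr1 had 5 UMIs (186 CPM), against 1702 CPM in cluster 0 and 2275 CPM in cluster 2, and Sall1, a transcription factor gene of microglial identity, had 0 UMIs against 245 and 201 CPM. Siglech had 9 UMIs (334 CPM), against 539 and 635 CPM. Few as they are, the nuclei came from both libraries in near-equal number. The border macrophage genes Pf4, Cbr2 and Siglec1 had 0 UMIs in female members, so their UMIs here came from the male nuclei.

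Clusters 1, 4 and 5 joined the rule genes with genes of other brain cells and stay unnamed. Cluster 1 (59 nuclei, 32 male and 27 female) was led by Lhfpl3, Nrg3os, Lrrtm4, Gm20642 and Gm28376, with 1172 CPM of the oligodendrocyte precursor list. Cluster 4 (34 nuclei, 11 male and 23 female) was led by Prr5l, Pde4b, St18, Ano4 and 4930419G24Rik, with 6377 CPM of the oligodendrocyte list. Cluster 5 (35 nuclei, 14 male and 21 female) was led by Gpc5, Wdr17, Gm20713, Rorb and Npas3, with 8746 CPM of the astrocyte list and all 8 genes of that list at 2-fold or more. Their median depths of 4002, 2405 and 3172 UMIs were above the 1594.5 and 1764 UMIs of clusters 0 and 2. Of these 3 clusters, 49.2%, 64.7% and 71.4% of nuclei lay in the top 8% of Scrublet doublet scores of their library, against 1.08% of cluster 0 and 0% of clusters 2 and 3.

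**Figure D2:**
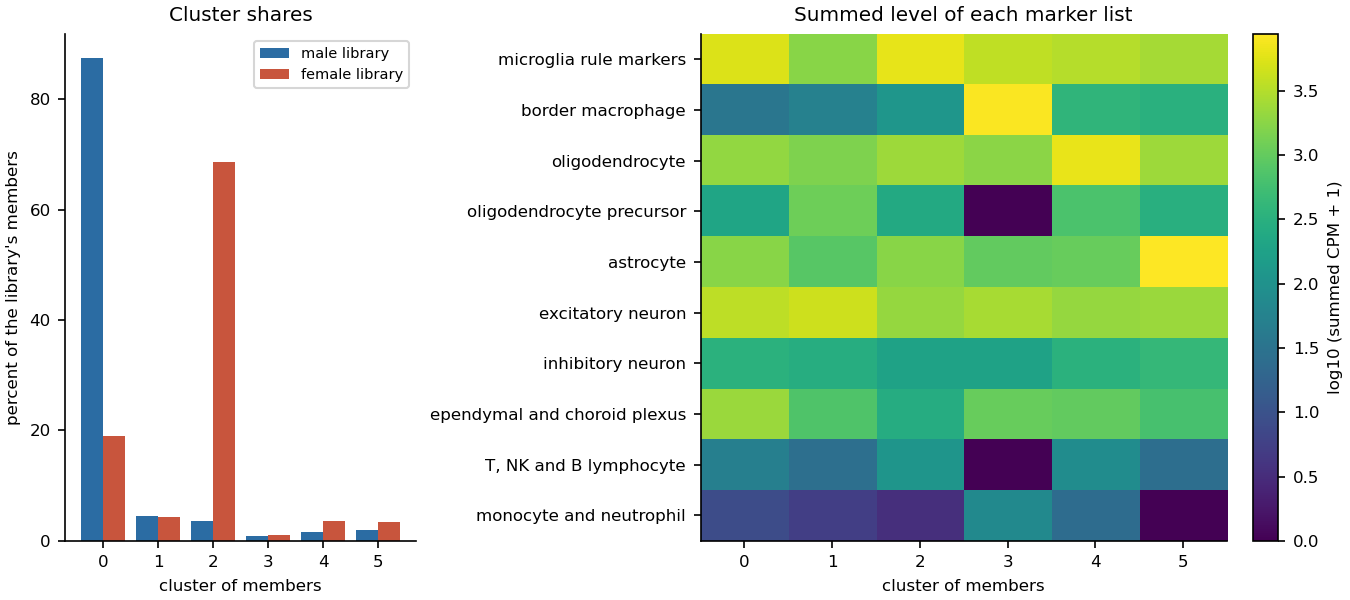
Left, percent of each library's members in each of the 6 clusters, for the male (blue) and female (red) library. Right, summed CPM of each marker list in each cluster, as log10 of CPM plus 1. The male members lie mainly in cluster 0 (87.5%) and the female members in cluster 2 (68.6%), and the border macrophage list is highest in cluster 3.

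Members made up a larger share of the male library. They were 4.43% of 16034 passing male nuclei (exact Clopper-Pearson interval 4.11 to 4.76) and 3.26% of 19251 passing female nuclei (3.02 to 3.52), a ratio of 1.36 (1.22 to 1.51). The nuclei of the other types in each library set this share as much as the members do. Under stricter limits of 1000 genes and 1% mitochondrial UMIs only 125 male and 35 female members were left, and the ratio was 2.57 (1.76 to 3.86).

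Between male and female members most genes were close. Each ratio is the log2 of the male over the female level, 5 CPM being added to both, positive where the male library was higher, over 8374 genes with at least 50 member UMIs and at least 20 CPM in either library. The median gene stood at 0.06 in members and at 0.06 in all other nuclei. At 2-fold or more, 188 genes (2.25%) differed, 105 (1.25%) higher in the male and 83 (0.991%) higher in the female library. With ratios centred on the median gene the split was 79 to 97. It was 17 to 32 with a pseudocount of 20 CPM and 49 to 50 with no UMI limit, so which library had more such genes depended on the setting. The 7 genes of the rule ranged from -0.38 (Runx1) to 0.38 (Cx3cr1).

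**Figure D3:**
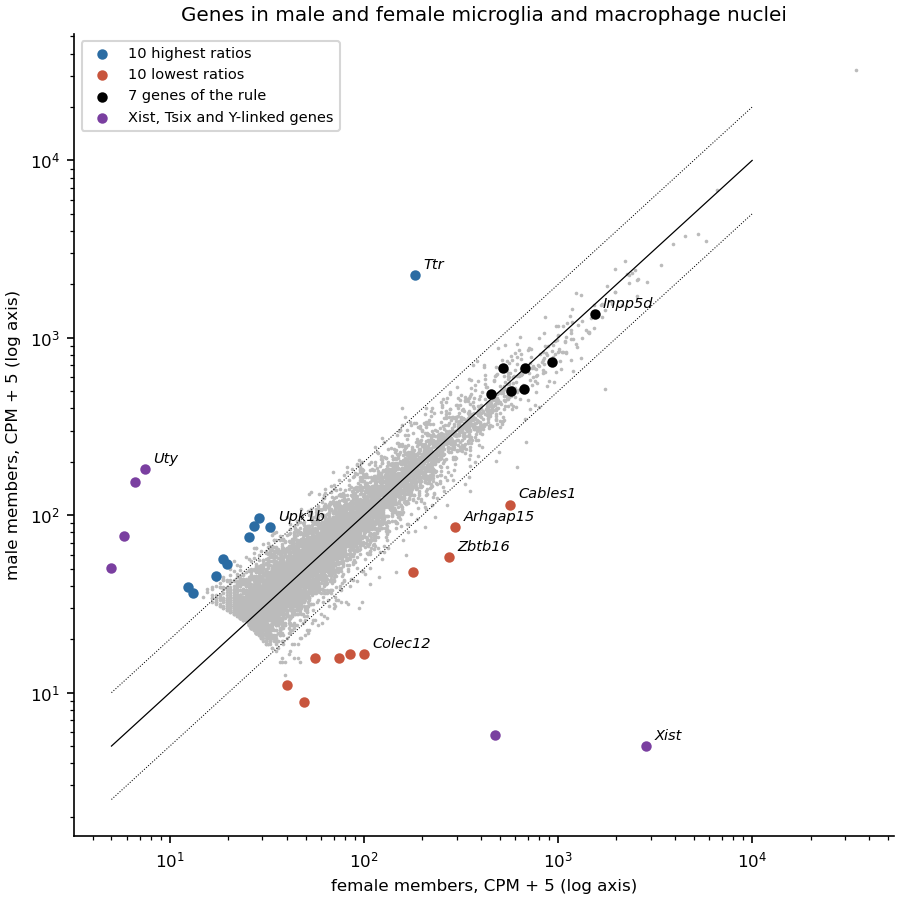
Each of the genes past the minimum as CPM plus 5 in female (x axis) and male (y axis) members, both on log axes, with the line of equality and 2-fold lines. The 7 genes of the rule (black) lie between the 2-fold lines, while Ttr, Cables1, Zbtb16, Arhgap15 and Colec12 lie outside them, as do Xist and the Y-linked genes.

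The genes higher in male members leaned to the male library in all other nuclei too, with a median ratio there above that of all genes. Of the 105, 103 had a ratio above 0 in all other nuclei too (median 0.49), but only 5 at 2-fold or more. Lower in members than in the rest in both libraries were 51. The median of all 8374 genes in the other nuclei was 0.06. How many of the 8374 were above 0 there, or lower in members, was not counted, so the 103 and the 51 have no share beside them. Ttr, the transthyretin gene of choroid plexus, had the highest ratio: 2942 UMIs or 2242 CPM in male members (exact Poisson interval 2162 to 2325) and 217 UMIs or 177 CPM in female members (154 to 202), a log2 ratio of 3.62 (3.43 to 3.82). The ratio in all other nuclei was 3.30. Ttr UMIs lay in 96.3% of male and 22.9% of female members, 80.4% and 12.1% after thinning each nucleus to 800 UMIs, and in 97.7% of male and 25.7% of female oligodendrocytes, a type not known for this gene. The shares in members were below those in oligodendrocytes in both libraries, and the source of these UMIs was not tested.

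Of the other 9 genes with the highest male ratios, C1qtnf4 stood at 1.75, C1ql2, a synapse organiser of granule neurons, at 1.68, Tspan33 at 1.67, the channel gene Trpc6 at 1.59 and C2cd2l at 1.56. Cacng3, a gene of an auxiliary subunit of AMPA-type glutamate receptors, stood at 1.46, the vesicular zinc transporter gene Slc30a3 at 1.43 and Rab40b at 1.40. C1ql2 had a ratio of 1.67 in all other nuclei, and its UMIs lay in 13.9% of male and 3.98% of female members against 13.9% and 3.61% of oligodendrocytes. Without the UMI limit Cacng3 stood at 0.14, Trpc6 at 0.79 and Tspan33 at 0.72.

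Upk1b, a tetraspanin gene on chromosome 16 (38773184 to 38800328, minus strand, mm10), was the exception among these 10. It had 106 UMIs or 80.8 CPM (66.1 to 97.7) in male and 34 UMIs or 27.8 CPM (19.2 to 38.8) in female members, a ratio of 1.39 (0.88 to 1.90), against 0.14 in all other nuclei. Members were 12.4-fold and 5.25-fold above the rest. UMIs lay in 12.5% of male and 5.10% of female members and in 0.185% and 0.296% of oligodendrocytes. After thinning the shares were 5.93% and 2.88%.

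The genes higher in female members had smaller ratios elsewhere. Of the 83, 73 had a ratio below 0 in all other nuclei too, with a median of -0.27 and 6 at 2-fold or more. How many of all 8374 genes were below 0 there was not counted, so the 73 have no share beside them. At least 4-fold above the rest in both libraries were 18, against 2 of the 105 male genes (Fcrls and Upk1b). Over all 14139 genes tested against the rest, 3.95% were at that fold. Those genes passed a looser minimum than the 8374, whose share at that fold was not counted, so the 3.95% is no like background. Cables1, which encodes a Cdk-binding protein, had 144 UMIs or 110 CPM (92.6 to 129) in male and 683 UMIs or 558 CPM (517 to 601) in female members. Its ratio was -2.29 (-2.55 to -2.04), against -0.39 in all other nuclei. Cables1 UMIs lay in 16.5% of male and 57.6% of female members, 6.50% and 36.1% after thinning, and in 2.09% and 2.90% of oligodendrocytes. The difference was present within both microglia-like clusters, with 113 male and 580 female CPM in cluster 0 and 175 male and 634 female CPM in cluster 2.

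Colec12 had the lowest ratio, -2.61 (-3.20 to -2.01), with 15 UMIs in 9 male members and 117 UMIs in 75 female members. In cluster 0 there was 1 UMI among the 621 male nuclei (0.952 CPM) and 14 among the 119 female nuclei (74.5 CPM), and in cluster 2 there were 67 UMIs in the female nuclei (84.1 CPM) and none in the 26 male nuclei. Over the microglia-like clusters only the ratio was -3.88. The other genes with low ratios were Ccdc80 (-2.48, 5 and 54 UMIs), Ston1 (-2.36, an endocytic adaptor gene, 11.4 and 79.2 CPM), Mrc2 (-2.25, a collagen receptor gene, 10.7 and 69.4 CPM), Gm35507 (-1.85) and the organic anion transporter gene Slco4a1 (-1.83). Without the UMI limit Ston1 stood at -1.31, Ccdc80 at -1.55, Colec12 at -1.96, Mrc2 at -1.62 and Gm35507 at -1.20.

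Arhgap15, a Rac GTPase-activating protein gene on chromosome 2 (43748824 to 44395953, plus strand, mm10), had 80.8 male and 291 female CPM, a ratio of -1.79 (-2.09 to -1.48), while all other nuclei had 68.7 and 64.9 CPM. In cluster 0 it had 60.9 male and 378 female CPM, but in cluster 2 the order was the opposite, with 350 male (16 UMIs) and 295 female CPM (log2 ratio 0.24). Without the UMI limit it stood at -0.99.

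**Figure D4:**
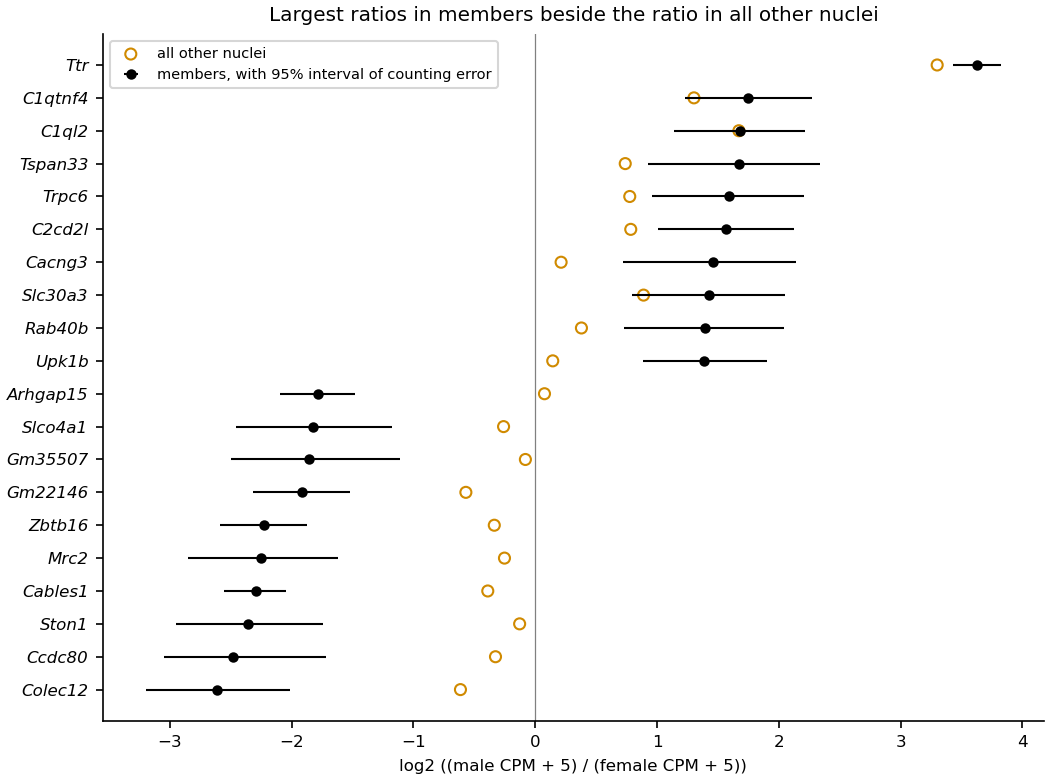
Log2 ratio of the male to the female level (5 CPM added) in members (black, bars are 95% intervals of counting error) for the 10 highest and 10 lowest genes, beside the ratio in all other nuclei (open circles). For Ttr and C1ql2 the circle is close to the member value. For Cables1, Zbtb16 and Arhgap15 it lies closer to 0 than the member value, though still below 0 for Cables1 and Zbtb16.

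The glucocorticoid receptor and its target genes leaned to the female library. Of 18 genes on the list 14 passed the minimum, 4 with a higher male level and 10 with a higher female level, where 55.9% and 44.1% of all genes tested did so. The median ratio was -0.48 against 0.06 over all genes, but the same genes had a median of -0.41 in all other nuclei. At 2-fold or more there were 4, all higher in the female library. Fkbp5, the co-chaperone gene that the glucocorticoid receptor induces, lies on chromosome 17 (28399094 to 28517527, minus strand, mm10) and had 665 UMIs or 507 CPM (469 to 547) in male and 2131 UMIs or 1740 CPM (1667 to 1816) in female members. Its ratio was -1.77 (-1.90 to -1.64) in members and -0.61 in all other nuclei, and members held 5.18-fold and 11.6-fold more than the rest.

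Fkbp5 UMIs lay in 56.1% of male and 89.6% of female members (33.2% and 74.1% after thinning) and in 13.1% and 34.4% of oligodendrocytes. Both microglia-like clusters showed the difference, 563 against 1707 CPM in cluster 0 and 460 against 1968 CPM in cluster 2. Gm22146, an antisense gene inside the Fkbp5 locus (28446500 to 28456457, plus strand), stood at -1.91 with 42.7 male and 175 female CPM. The strand used in counting was not given in the sources used here: reads of this pair cannot be told apart. Zbtb16, a zinc finger gene that glucocorticoids induce, had 53.3 CPM (41.6 to 67.4) in male and 268 CPM (240 to 299) in female members, a ratio of -2.23 (-2.59 to -1.87) against -0.34 elsewhere.

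Unlike Fkbp5, Zbtb16 was no higher in members than elsewhere: all other nuclei had 264 male and 334 female CPM, and oligodendrocytes 294 and 766 CPM. Its UMIs lay in 7.61% of male and 34.2% of female members, and in 38.8% and 70.6% of oligodendrocytes, so the shares in members were below those of a type that holds the gene. Without the UMI limit Zbtb16 stood at -0.76. Sult1a1 (-1.27) and Tsc22d3 (-1.07, the gene of GILZ) followed. The receptor gene Nr3c1 itself stood at 0.18 (229 and 203 CPM) and the kinase gene Sgk3 at 0.20.

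Homeostatic microglia genes were evenly divided. All 16 passed the minimum, 8 higher in each library, with a median of -0.02 (0.37 under the limits of 1000 genes and 1% mitochondrial UMIs), and 15 of the 16 were at least 4-fold above the rest. Fcrls, an Fc receptor-like gene on chromosome 3 (87250758 to 87263738, minus strand, mm10), was alone at 2-fold, with 222 UMIs or 169 CPM (148 to 193) in male and 94 UMIs or 76.8 CPM (62 to 94) in female members. Its ratio was 1.09 (0.75 to 1.43), against 0.33 elsewhere, and stood below 2-fold at 0.64 under the limits of 1000 genes and 1% mitochondrial UMIs and at 0.97 with a pseudocount of 20 CPM. The integrin gene Itgam stood at 0.32, the purine receptor gene P2ry6 at -0.42 and the fructose transporter gene Slc2a5 at -0.33. Tmem119 (114 and 97.2 CPM) and Siglech were nearly level between the libraries.

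Myeloid transcription factor genes showed the same balance, 8 with the higher level in male and 9 in female members (median -0.02), with 12 of 17 at least 4-fold above the rest. Ets1 had 104 male and 53.9 female CPM (0.88, interval 0.48 to 1.29) and Sall1 243 and 163 CPM (0.56, 0.31 to 0.81), with ratios of -0.04 and -0.20 elsewhere. Etv5 was the single factor past 2-fold, at -1.04 (57.2 and 123 CPM), but stood at -0.65 with no UMI limit, and Bhlhe41 stood at -0.49. Spi1, the gene of PU.1, had 131 and 123 CPM. Runx2 was higher in the rest than in members, at 73.9 and 72.7 CPM against 270 and 297 CPM.

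Genes of ITAM and CSF1 receptor signalling, by which Trem2 and the CSF1 receptor act on microglia, were 10 higher in each library (median -0.01), and 18 of 20 were at least 4-fold above the rest. Trem2 had 87.6 male and 76.8 female CPM and its adaptor Tyrobp 79.3 and 79.2 CPM. Csf3r stood at 0.33 and the phosphatase gene Ptpn6 at 0.23 on 30 and 23 UMIs, and the latter was at -0.60 after thinning. The kinase gene Lyn stood at -0.39 (832 and 1094 CPM), next to Arhgap15. The TGF-beta pathway had 5 and 6 of its 11 genes higher in the male and female library (median -0.02, but 0.63 under the limits of 1000 genes and 1%), and 4 of 12 were at least 4-fold above the rest. The ligand gene Tgfb1 had 79.3 male and 46.6 female CPM (0.71, 0.27 to 1.16), the receptor genes Acvr1 and Tgfbr1 stood at 0.43 and -0.29, and the signal transducer gene Smad2 at -0.23.

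Complement and phagocytosis genes leaned to the female library, 6 of 15 with the higher level in male and 9 in female members (median -0.26, against -0.17 for the same genes elsewhere and -0.094 in members with no UMI limit), with none at 2-fold. The C1q genes C1qa, C1qb and C1qc, which start the classical complement pathway, were near equal, at 253 and 247, 251 and 269, and 328 and 323 CPM. Itgb2, the shared chain of the complement receptors, stood at -0.87 (20.6 and 41.7 CPM, interval -1.46 to -0.27) and the anaphylatoxin receptor gene C3ar1 at -0.79, against Fcgr1 at 0.33 and Fcer1g at 0.25. C3 had 1 male and 0 female UMIs. Mertk, the receptor for apoptotic cells, had 1430 male and 1736 female CPM. In the lysosome and endosome list 8 of 15 genes had the higher male level (median 0.10), with the protease genes Tpp1 (0.71) and Ctsl (0.50) and the tetraspanin gene Cd63 (-0.30) among them.

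Disease-associated microglia genes were mostly near the detection limit. Of 16 genes, 15 matched the files and 5 passed the minimum, and none of 8 tested was at least 4-fold above the rest. Itgax and Cst7 had 1 male and 2 female UMIs each, Spp1 3 and 18, Gpnmb 4 and 3, and Lgals3 1 and 1. Apoe had 1800 male and 1955 female CPM (-0.12), but its UMIs lay in 94.9% and 95.5% of members and in 96.1% and 95.5% of oligodendrocytes. Its share in members was thus not above that of another type, but shares so near the ceiling cannot show a difference in level. The remaining genes past the minimum were Ank (0.32), Lpl (0.25), Fabp5 (0.02) and Cd9 (-0.06).

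Cytokine and pattern receptor genes were low apart from the receptors. Of 20 genes 8 passed the minimum, 2 with the higher level in male and 6 in female members (median -0.50, against -0.28 for the same genes elsewhere). Il1b had 0 male and 1 female UMI, Tnf 1 and 4, and Ccl2 0 and 3. Tlr7, the X-linked receptor gene for single-stranded RNA (chromosome X, 167304929 to 167330558, minus strand, mm10), had 173 UMIs or 132 CPM (113 to 153) in male and 427 UMIs or 349 CPM (316 to 383) in female members. Its ratio was -1.37 (-1.63 to -1.12) against -0.45 elsewhere, and members were 20.3-fold and 38.5-fold above the rest. Tlr7 UMIs lay in 20% of male and 42.7% of female members, 10.7% and 25.4% after thinning, and in 0.493% and 0.858% of oligodendrocytes. Within clusters 0 and 2 Tlr7 stood at -1.07 and -1.44. Under the stricter limits of 1000 genes and 1% mitochondrial UMIs it stood at -0.50.

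The NF-kappa-B inhibitor gene Nfkbia also passed 2-fold, at -1.12 with 28.2 and 67 CPM, but stood at -0.95 elsewhere and at -0.80 in members with no UMI limit. The interleukin-10 receptor gene Il10ra had the opposite direction, at 0.80 (0.44 to 1.15) with 134 male and 75.1 female CPM and 0.02 elsewhere. The interferon response list had 3 of 7 genes higher in the male library (median -0.11), with the RNA sensor gene Ifih1 at -0.55, Ifi27 at 0.04 and Parp14 at 0.42, while Isg15 and Irf7 had at most 1 UMI in either library. Antigen presentation genes were sparse too: of 12 genes 5 passed the minimum, 1 higher in the male (H2-K1, 0.52) and 4 in the female library, among them Tap2 (-0.42) and B2m (-0.38). The class II gene H2-Eb1 had 3 UMIs in 1 male nucleus and 16 UMIs in 8 female nuclei.

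Purinergic, adenosine and ion channel genes leaned to the female library, 2 of 12 with the higher level in male and 10 in female members (median -0.32, against -0.08 elsewhere and -0.02 in members under the limits of 1000 genes and 1%), with none at 2-fold. The calcium channel genes Trpv2 and Trpm2 stood at -0.64 (-1.14 to -0.15) and -0.60 (-0.95 to -0.26). The ectonucleotidase gene Entpd1 stood at 0.14 (601 and 546 CPM) and the GABA-B receptor gene Gabbr1 at 0.71, the latter in 42.0% of male and 29.0% of female members and 45.0% and 40.5% of oligodendrocytes. In the lipid and eicosanoid list 5 of 12 genes had the higher male level (median -0.06). Alox5, the first enzyme of leukotriene synthesis, had 26 UMIs or 19.8 CPM in male and 68 UMIs or 55.5 CPM in female members (-1.29, -1.86 to -0.72, but -0.79 under the same limits), and Hpgd, which inactivates prostaglandins, had 104 male and 58 female CPM (0.79, 0.39 to 1.19). Alox5ap stood at 0.24 and Abca9 at -0.33. None of the 12 cell cycle genes passed the minimum, the largest count being Cenpf with 6 UMIs in 5 male and 43 UMIs in 32 female members.

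**Figure D5:**
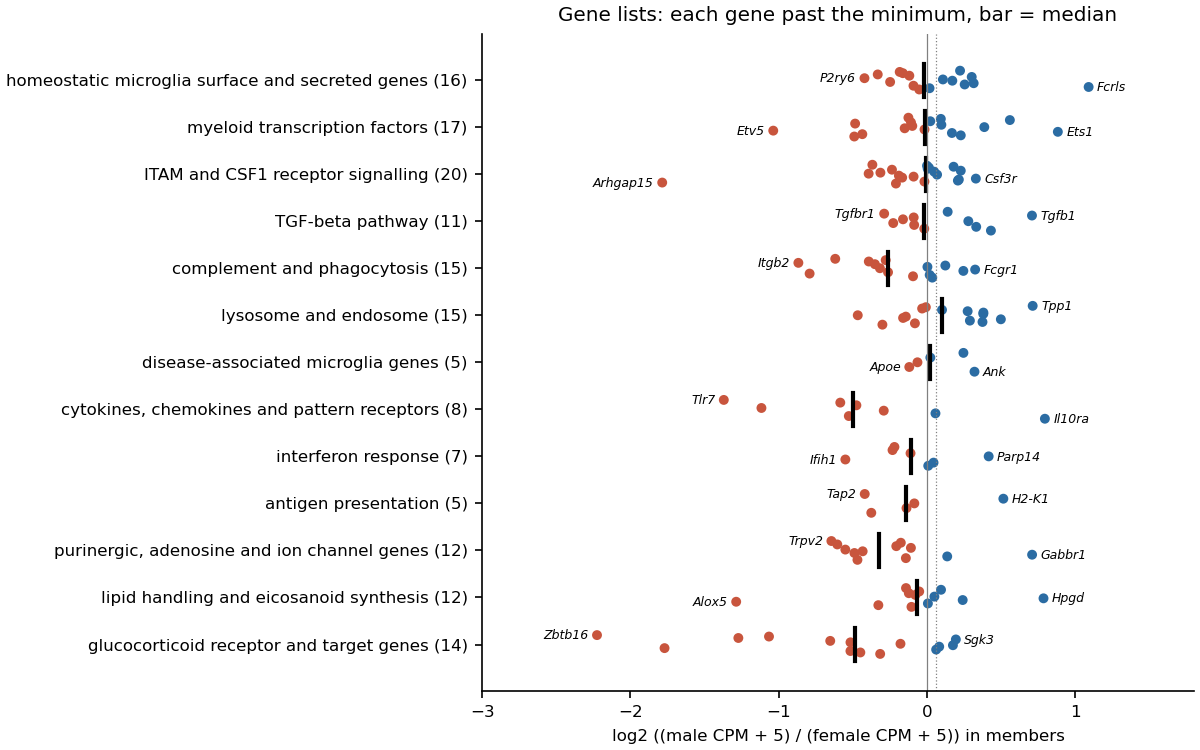
Log2 ratio of the male to the female level (5 CPM added) in members for each gene past the minimum in 13 gene lists (points, blue higher in male, red higher in female), with the median of each list (bar) and of all genes (dotted line, 0.06). The number of genes past the minimum stands in brackets after each list name, and each gene named lies at an end of its list. Medians lie near 0 for the homeostatic, transcription factor, ITAM and TGF-beta lists and at -0.50 and -0.48 for the cytokine and glucocorticoid lists.

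Marker lists of some other brain cells leaned the same way in members as in all other nuclei, but not every list did. The inhibitory neuron list had 4 of 4 genes past the minimum higher in the male library (median 0.41, -0.06 elsewhere). The oligodendrocyte precursor list had 2 genes higher in each library (median 0.02, -0.71 elsewhere). The excitatory neuron list summed to 3664 CPM in male members and 2396 CPM in female ones, with 7 of 7 genes past the minimum higher in the male library (median 0.86, 0.40 elsewhere), Slc17a7 at 1.05 and Nptxr at 1.13 among them. The oligodendrocyte list summed to 1780 and 2704 CPM, with 1 gene of 6 with the higher level in male and 5 in female members (median -0.59, -0.69 elsewhere), and the astrocyte list to 1757 and 2195 CPM, with 1 of 8 and 7 of 8 (median -0.32, -0.50 elsewhere). The ependymal and choroid plexus list summed to 2322 and 224 CPM, nearly all of it Ttr, with Dnah12 at 0 UMIs in both. No gene of the excitatory neuron, oligodendrocyte or astrocyte list was at 0. The part of these lists in the male and female ratios above was not tested.

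Other blood and border cells were scarce. The border macrophage list summed to 143 male and 211 female CPM in members (24.9 and 41.7 elsewhere), and Pf4, Cbr2 and Siglec1 were at 0 in the female library. The monocyte and neutrophil list summed to 5.33 and 7.35 CPM, with 5 of 8 genes at 0 in each library. The lymphocyte list summed to 36.6 and 102 CPM, but the T and B cell genes Cd3e, Cd3g, Themis and Ms4a1 were at 0 in both, and 36 of the male and 114 of the female UMIs came from Il7r. The endothelial list summed to 33.5 and 32.7 CPM and the fibroblast list to 72.4 and 136 CPM, mostly Bnc2, with 60 and 126 UMIs.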

How the data were processed

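Single-nucleus RNA of the hippocampus was captured with droplet 3′ chemistry (per the labels' protocols), with 1 library per sex. The authors deposited raw UMI counts for each gene and barcode; Cell Ranger 7.0.1 wrote them, per the file headers. The build mm10 and bcl2fastq 2.20.0.422 are named in the submitters' processing notes. Annotation release, intron setting and barcode calling: not given in the sources used here. Counts of genes sharing a symbol were added. CPM, folds and ratios were computed here from summed counts with a pseudocount of 5 CPM, and the folds of clusters with 20 CPM. Comparisons with all other nuclei used genes with at least 50 UMIs in all passing barcodes and at least 5 CPM in either part. Intervals are exact (Poisson, Clopper-Pearson or conditional binomial) at 95% (scipy 1.17.1), and the calculation was tested on simulated data.

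Members were clustered with scanpy 1.11.5 (2000 variable genes, 20 components, 15 neighbours, Leiden resolution 0.5). Oligodendrocytes, the class used for background shares, were nuclei with at least 4 UMIs of at least 3 genes of their own markers, that of no other compared class, and at most 1 UMI of the genes of the rule. Thinning to 800 UMIs left out 2 male and 2 female members. Scrublet called 9.62% of male and 0% of female passing nuclei, so its automatic call had not worked, no nuclei were removed, and the top 8% of scores were removed only as an alternative; 5.63% of male and 7.01% of female members lay there. Named genes were the 7 genes of the rule, the 20 largest folds with at least 100 UMIs, the 10 highest and 10 lowest ratios, the 2 highest and 2 lowest of each list, and the 5 leading genes of each cluster, and other list genes are named as examples or where counts were low. Some genes that this rule would name are not reported here. The members and lists were chosen with earlier results of these data known. Positions are from GENCODE vM21. No test was run.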

Additional observations from a re-analysis of the deposited data

How the results depend on the processing

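Each alternative was run on its own, but the limits of 1000 genes and 1% mitochondrial UMIs, and of 6 marker UMIs and 4 genes, each move a pair of thresholds together. The restriction of the male and female shares to the microglia-like clusters was added after seeing the data. With limits of 1000 genes and 1% mitochondrial UMIs the share ratio was 2.57, and under the other alternatives it was 1.27 to 1.43. Genes at 2-fold or more, against 105 higher in the male and 83 higher in the female members, numbered 184 and 110 with a pseudocount of 1 CPM and 17 and 32 with 20 CPM. Those settings tested 8374 genes, as the main comparison did. With a minimum of 1 UMI there were 252 and 239 of 19808 genes tested, and with no UMI limit 49 and 50 of 8300. With 1000 genes and 1% mitochondrial UMIs there were 106 and 45 of only 1930 genes tested, and after thinning 95 and 48 of 4828. These counts are therefore parts of unlike totals. Genes at 4-fold or more over the rest numbered 900 and 265 with pseudocounts of 1 and 20 CPM, against 558. Resolution 1 gave 13 clusters. Under the limits of 1000 genes and 1%, the log2 ratio had the opposite sign for Abca9 (0.029), Ank (-0.13), Apbb1ip (0.17), Cdh23 (0.000727), Dock2 (0.11), Gm10790 (0.80), Gm2629 (0.32), Ikzf1 (0.026), Inpp5d (0.22), Lair1 (0.35), Ly86 (0.33), Lyn (0.18), Mrc2 (2.09, on 5 UMIs), P2ry6 (0.20) and Tgfb1 (-0.22). So did the medians of the lysosome (-0.044), interferon (0.40) and antigen presentation lists (0.49). After thinning Ank (-0.12), Cd63 (0.089) and the interferon median (0.14) had the opposite sign. Both settings rest on fewer UMIs, and the cause was not tested. Of 108 ratios and list medians, the limits of 1000 genes and 1% moved 54 beside the 18 of opposite sign and left 36 the same, among the moved the homeostatic (0.37), TGF-beta (0.63) and purinergic (-0.02) medians. No UMI limit moved 27, thinning 10, a pseudocount of 20 CPM 7, and each other setting at most 5. Cables1, Fkbp5 and Tlr7 kept their direction under every alternative, with Fkbp5 from -1.83 to -1.48, while Tlr7 stood at -0.50 with 1000 genes and 1% mitochondrial UMIs. No paired analysis was possible because each group has 1 library, and no library could be left out for the same reason. The shallow nuclei limit what low genes can show.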

Other observations

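Picked after their values were seen, 20 genes were both at least 4-fold above the rest in each library and at 2-fold or more between male and female members. Beside Fcrls and Upk1b, higher in the male library, and Cables1, Fkbp5, Tlr7, Alox5 and Bnc2, higher in the female library, these were 13 genes higher in the female library. The galactosyltransferase gene B4galt1 had 182 male and 613 female CPM (log2 ratio -1.72). The interleukin-7 receptor gene Il7r had 27.4 and 93.1 CPM (-1.60), and Rad51b, a gene of homologous recombination, 39.6 and 115 CPM (-1.43). The TRIM family genes Trim12a (-1.38) and Trim30d (-1.32) had 26.7 and 77.6 CPM and 27.4 and 76 CPM. The RNA-binding protein gene Rbm47 had 197 and 472 CPM (-1.24). Ms4a6b had 26.7 and 65.3 CPM (-1.15) and Lacc1 43.4 and 93.1 CPM (-1.02). The others were Glrp1 (-1.64), Gm16118 (-1.29), AU020206 (-1.24), Gm4951 (-1.20) and Ccdc192 (-1.01). How many of the 8374 genes compared between male and female members were at 4-fold over the rest was not counted, so no share stands beside the 20.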
